A study of Homo sapiens with 9 samples.

Results

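The 10 genes described here encode 5 matrix metalloproteases (MMP1, MMP2, MMP3, MMP10 and MMP14), their 3 tissue inhibitors (TIMP1, TIMP2 and TIMP3), and the serine protease urokinase with its receptor (PLAU and PLAUR). They were taken by gene symbol from a table of 32997 genes, and all 10 were found in it, each on a single row. RNA was measured in ES-2 cells, an established human ovarian cancer cell line grown in RPMI-1640 with fetal bovine serum and given no other treatment. 3 libraries came from cells with an empty vector (called vector below), 3 from cells overexpressing OTUB2, a deubiquitinating enzyme, and 3 from cells overexpressing SNX29P2, a pseudogene related to the sorting nexin gene SNX29. All 9 libraries therefore come from the same parental line and all carry a vector. The labels name neither the promoter nor the type of vector, and do not say whether the cells were a pool or a clone, or whether replicate libraries were made from cultures grown apart. The p-values therefore measure the spread between these libraries, which may be technical.

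Matrix metalloproteases are zinc-dependent enzymes that cut collagens and other proteins outside the cell. They are made as inactive proenzymes, are activated by removal of a propeptide, and are held in check by the TIMPs, which bind the active site. Urokinase, bound to its receptor at the cell surface, converts plasminogen to plasmin, a serine protease that degrades matrix proteins and can activate several pro-metalloproteases. In ovarian cancer these enzymes are studied for their part in the invasion of the peritoneal surface.

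MMP1, MMP3 and MMP10 lie side by side on chromosome 11, all on the minus strand, and encode related enzymes: an interstitial collagenase and the stromelysins 1 and 2. Their zinc-binding sites are shown because the likeness of MMP3 and MMP10 bears on how surely reads can be given to each gene. The following windows of 51 coding bases come from the GENCODE 29 transcripts, with the codons of the 3 zinc-binding histidines in capitals.
MMP1: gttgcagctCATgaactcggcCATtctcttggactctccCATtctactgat
MMP3: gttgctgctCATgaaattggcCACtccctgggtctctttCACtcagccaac
MMP10: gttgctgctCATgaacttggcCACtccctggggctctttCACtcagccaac
MMP3 and MMP10 were identical at 49 of the 51 bases, whereas MMP3 and MMP1 differed at 15 and MMP1 and MMP10 at 14. Over the whole transcripts, the longest run that MMP3 shared with MMP10 was 96 bases, and 59 of the 1967 stretches of 50 bases in MMP3 (3.00%) were also in MMP10. With MMP1, MMP3 shared no stretch of 50 bases, and the longest common run was 18 bases. Reads that fall wholly within such stretches cannot be told apart by sequence, and the counting rule for them is not given in the sources used here.

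Levels are given in RPKM, reads per kilobase of gene length per 1000000 reads, so they can be compared between genes. In units of 1000000 reads in genes, the depth of the libraries was 38.5 to 48.6. The overexpressed genes matched the labels: OTUB2 was at 37.6 to 42.6 RPKM in its own group and at 1.04 to 1.58 RPKM in the other 6 libraries, and SNX29P2 was at 41.0 to 55.1 RPKM in its own group and at most 0.0665 RPKM elsewhere. KRT8 (25.7 to 36.5 RPKM) and KRT18 (101 to 147 RPKM), keratins of epithelial cells, were present, while the epithelial adhesion gene EPCAM was at most 0.0192 RPKM and the ovarian lineage factor PAX8 was at 0.149 to 0.421 RPKM. Of the endothelial markers, CDH5 was at 17.6 to 23.6 RPKM and the others at most 0.328 RPKM. Of the fibroblast markers found, COL1A1 was at 45.5 to 86.0 RPKM and the others at most 2.04 RPKM. 1 library stood apart. In OTUB2 replicate 1 the leukocyte markers LYZ, TYROBP, CD14, PTPRC and CD3E summed to 6.27 RPKM with none at 0, while in the other 8 libraries they summed to 0.0294 to 0.237 RPKM with 2 to 4 of the 5 at 0. The sixth leukocyte marker, CD68, was at 28.6 to 35.3 RPKM in all 9 libraries. For the tested genes of those described here, the differences of OTUB2 from the vector are therefore also given without this library. For genes of other lists they are given with all libraries only.

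The order of the levels was much the same in the 3 groups. In the vector cells the means, from high to low, were in the order MMP1, PLAU, TIMP1, MMP14, PLAUR, MMP2, TIMP3, TIMP2, MMP3 and MMP10. The library ranges of MMP2 and TIMP3 overlapped, as did those of TIMP3 and TIMP2, and all other neighbours in this order were apart. With OTUB2, MMP3 had the fifth highest mean, with a range that overlapped those of MMP14 and PLAUR. With SNX29P2 it had the sixth, and its range overlapped those of PLAUR and MMP2. MMP3 was the only one of the 10 genes to take another place relative to the others by its mean.

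**Figure D1:**
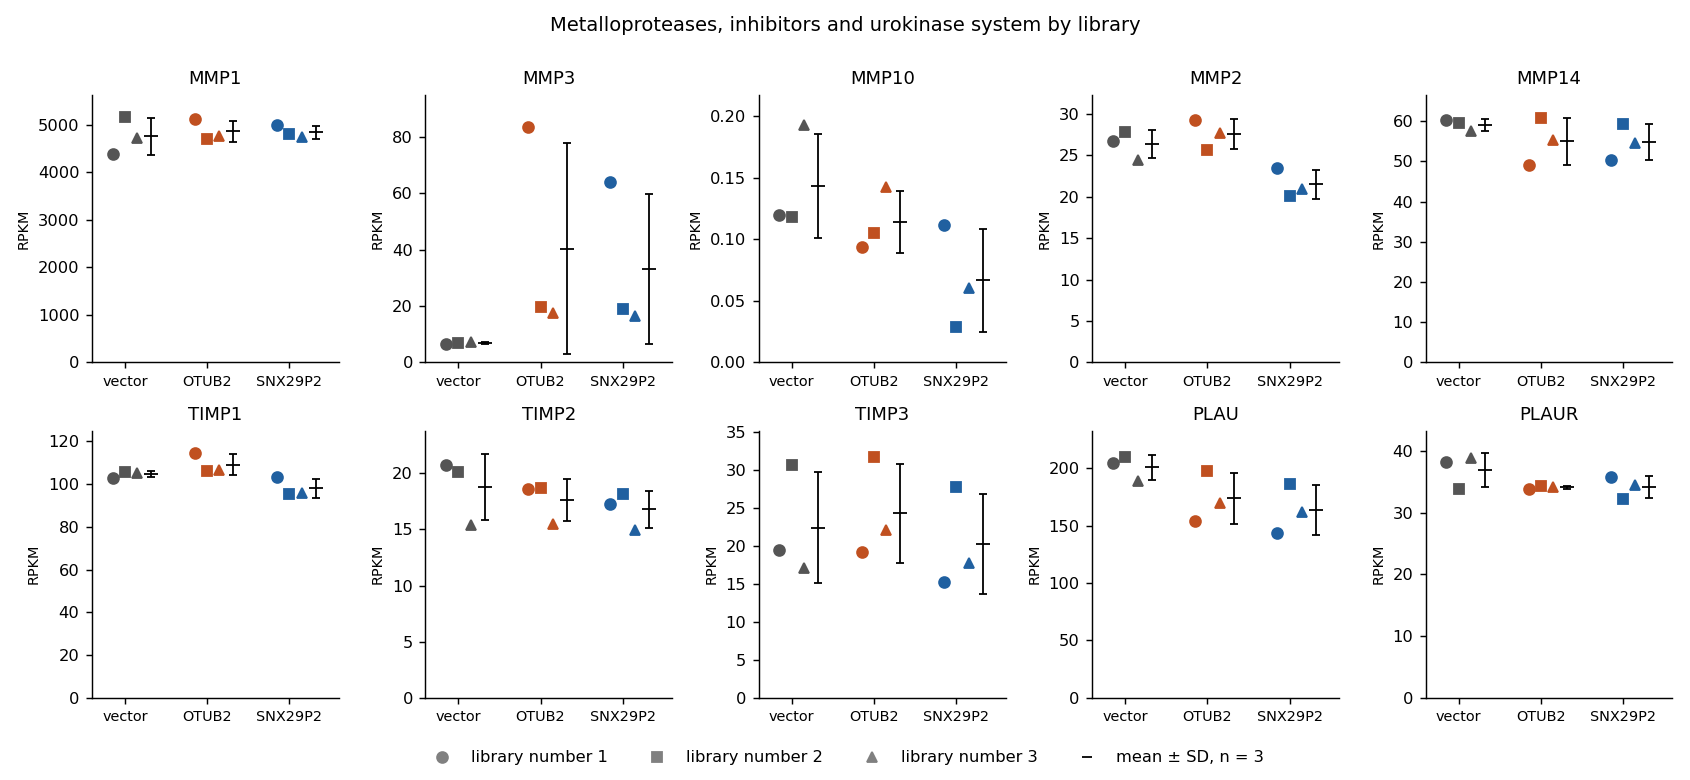
Level of each of the 10 genes in each library, in RPKM on axes that start at 0, with vector, OTUB2 and SNX29P2 libraries from left to right, symbols for the library number and bars for the mean ± SD (n = 3). MMP3 is at 6.41 to 7.39 RPKM with the vector and at 16.6 to 83.7 RPKM in the overexpression libraries, with the 2 libraries numbered 1 far above the others, while MMP1 stays between 4390 and 5167 RPKM.

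MMP3, stromelysin 1, degrades proteoglycans, laminin and several collagens and can activate other pro-metalloproteases. It is at chromosome 11, 102835801 to 102843803 (GRCh38), and its exons cover 2048 bases. The vector libraries had 6.41, 6.84 and 7.39 RPKM. OTUB2 libraries had 83.7, 19.8 and 17.6 RPKM, and SNX29P2 libraries 63.8, 19.1 and 16.6 RPKM, in the order of their replicate numbers. All 6 overexpression libraries thus lay above all 3 vector libraries, as they did for 2.46% of the genes tested. Within each overexpression group replicate 1 was several times above replicates 2 and 3. The highest library was 4.75 times the lowest in the OTUB2 group and 3.84 times the lowest in the SNX29P2 group, against 1.15 times among the vector libraries. These values rest on 539 to 626 reads per vector library and on 1441 to 7271 reads per overexpression library. Group means were 6.88 ± 0.495 RPKM with the vector, 40.4 ± 37.5 RPKM with OTUB2 and 33.2 ± 26.6 RPKM with SNX29P2 (SD, n = 3), so that in both overexpression groups the SD was nearly as large as the mean.

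On the log2(RPKM + 0.1) scale, limma gave MMP3 a difference of 2.15 (SE 0.617, 95% interval 0.76 to 3.54) with OTUB2, a 4.44-fold higher fitted level, and of 1.97 (SE 0.617, 95% interval 0.59 to 3.36) with SNX29P2, a 3.93-fold higher one. Unadjusted limma p was 0.00636 and 0.0101. Neither difference passed the threshold of 0.05 after Benjamini-Hochberg adjustment over the 16533 genes tested, with limma adjusted p of 0.606 and 0.516. Without OTUB2 replicate 1, the library with leukocyte transcripts, the OTUB2 difference was 1.43 (limma adjusted p = 0.962). Without SNX29P2 replicate 1 the SNX29P2 difference was 1.36 (limma adjusted p = 0.476). SNX29P2 replicate 1 had a high MMP3 level at a leukocyte marker sum of 0.119 RPKM, with 3 of the 5 markers at 0. Whether the leukocyte transcripts bear on the MMP3 level of OTUB2 replicate 1 was not tested. In libraries of bulk RNA, a change in the number of cells that express a gene and a change in its RNA per cell cannot be told apart.

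Since both overexpression groups lay on the same side, they were also compared together with the vector, a comparison chosen after the values were seen. MMP3 was then higher by 2.06 on the log2 scale (SE 0.535), with a limma adjusted p of 0.353, where 0.0605% of all genes tested were called. With all 3 libraries numbered 1 left out, the difference was 1.35 with a limma adjusted p of 0.0501. Between the overexpression groups, MMP3 differed by 0.18 (95% interval -1.21 to 1.56, limma adjusted p = 1.000). This fit did not pair libraries by number, so its interval includes the spread between numbers and is too wide to show whether they differed. Without OTUB2 replicate 1, but with SNX29P2 replicate 1 kept, the difference was -0.54. Paired by library number, the ratio of OTUB2 to SNX29P2 was 1.31, 1.04 and 1.06.

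**Figure D2:**
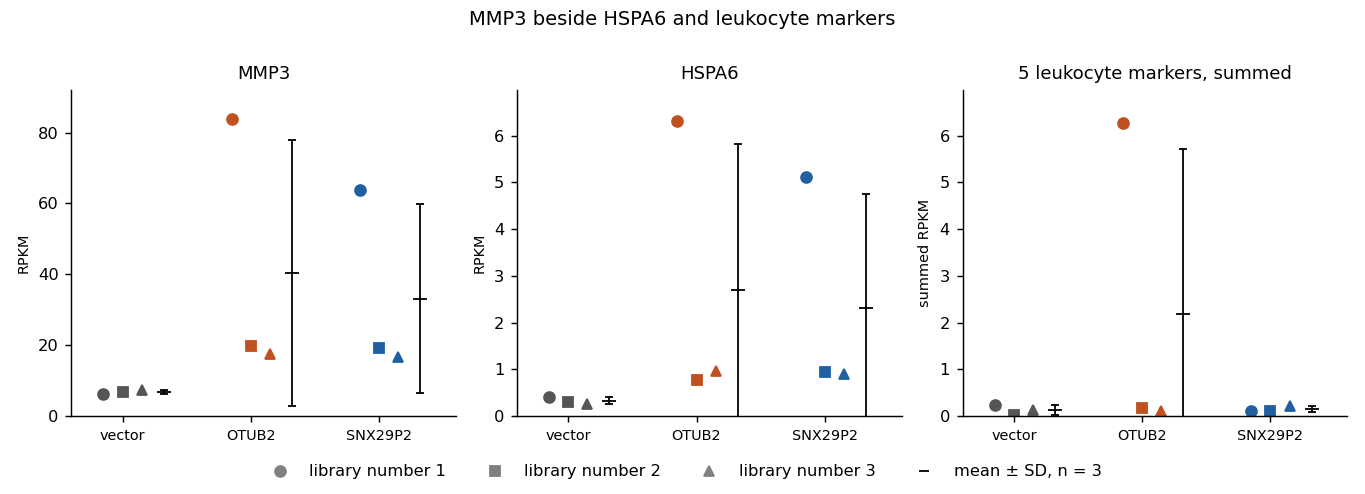
MMP3, the heat shock gene HSPA6 and the sum of 5 leukocyte markers in each library, in RPKM on axes that start at 0, with bars for the mean ± SD (n = 3, cut off at 0). MMP3 and HSPA6 are both highest in the libraries numbered 1 of the 2 overexpression groups, whereas the leukocyte markers are high in OTUB2 replicate 1 alone. HSPA6 was chosen for its likeness to MMP3 over these libraries.

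The 10 genes whose log2 levels were most like MMP3 over the 9 libraries, among 11782 tested genes that averaged 1 RPKM or more, had Pearson correlations of 0.943 to 0.982. They were SDHB, a subunit of mitochondrial complex II, the heat shock gene HSPA6, the fatty acid ligase ACSL5, the endoplasmic reticulum chaperone component SDF2L1, LACTB2-AS1, the mitochondrial ribosomal protein gene MRPL18, the proton pump subunit ATP6V0E1, the secreted phosphoprotein SPP1, the stress-response factor ATF4 and the signal peptidase subunit SPCS2. Without the 2 libraries of highest MMP3, OTUB2 replicate 1 and SNX29P2 replicate 1, their correlations were 0.811 to 0.959. These correlations are a description over libraries that share groups and numbers. For 8 of the 10 the highest library was 1.14 to 1.81 times the lowest, for SPP1 2.41 times and for HSPA6 23.8 times. HSPA6 had 0.415, 0.307 and 0.265 RPKM in the vector libraries, 6.31, 0.782 and 0.972 RPKM with OTUB2, and 5.12, 0.950 and 0.894 RPKM with SNX29P2. HSPA6 was highest in replicate 1 of each overexpression group. It was higher in all 6 overexpression libraries than in any vector library, as were 2.46% of the genes tested. SPP1, osteopontin, ranged from 4.30 to 10.4 RPKM and was also highest in those replicates, at 10.4 and 10.2 RPKM. Both genes were listed for their likeness to MMP3 over these same libraries, so the shared pattern follows from the choice and is no further evidence.

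MMP1, the interstitial collagenase, cuts fibrillar collagens in their triple helix. It is at chromosome 11, 102789920 to 102798160 (GRCh38), 10 exons covering 1970 bases. It was among the most abundant transcripts of these cells, sixth of all genes by RPKM in 8 libraries and seventh in vector replicate 3, and took 0.865 to 1.02% of all reads in genes. Vector libraries had 4390, 5167 and 4735 RPKM. OTUB2 libraries had 5116, 4710 and 4766 RPKM and SNX29P2 libraries 5004, 4800 and 4746 RPKM, all within the range of the vector libraries. The limma difference was 0.03 for either overexpression (SE 0.0712), with 95% intervals of -0.13 to 0.19 for each. It was -0.0047 with OTUB2 when OTUB2 replicate 1 was left out, and 0.0059 with SNX29P2 when SNX29P2 replicate 1 was. MMP1 thus stood 640 to 756 times above MMP3 in the vector libraries, 61.1, 237.7 and 270.5 times in the OTUB2 libraries and 78.4, 251 and 286 times in the SNX29P2 libraries.

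A transcribed pseudogene on the opposite strand, WTAPP1, spans MMP10, MMP1 and the end of MMP3 (chromosome 11, 102746968 to 102836766). It was listed at 737 to 871 RPKM, and its reads came to 26.3 to 28.9% of those of MMP1 in every library. WTAPP1 shares 150 exon bases with MMP1 (7.61% of the MMP1 exon bases), 32 with MMP3 (1.56%) and 0 with MMP10. Whether the authors counted reads by strand is not given in the sources used here, so reads in the shared bases cannot be assigned to either gene with certainty.

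MMP10, stromelysin 2, has a range of substrates close to that of MMP3. It is at chromosome 11, 102770503 to 102780628 (GRCh38). It was barely detected, with 0.120, 0.118 and 0.193 RPKM in the vector libraries, 0.0939, 0.105 and 0.142 RPKM with OTUB2, and 0.112, 0.0285 and 0.0603 RPKM with SNX29P2. These levels rest on 2 to 14 reads per library, and MMP10 was the only one of the 10 genes to fail the filter of 0.5 RPKM in 3 libraries, leaving 9 for the tests. Summed over a group, there were 31, 26 and 16 reads, or 0.253 (exact Poisson 95% interval 0.172 to 0.359), 0.199 (0.130 to 0.291) and 0.120 (0.0688 to 0.195) reads per 1000000 for vector, OTUB2 and SNX29P2. The intervals cover counting error only. They overlap, but overlap of separate intervals is no test of a difference between the groups. The libraries with the highest MMP3 had 7 MMP10 reads (OTUB2 replicate 1, the lowest of its group in RPKM) and 9 MMP10 reads (SNX29P2 replicate 1, the highest of its group).

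**Figure D3:**
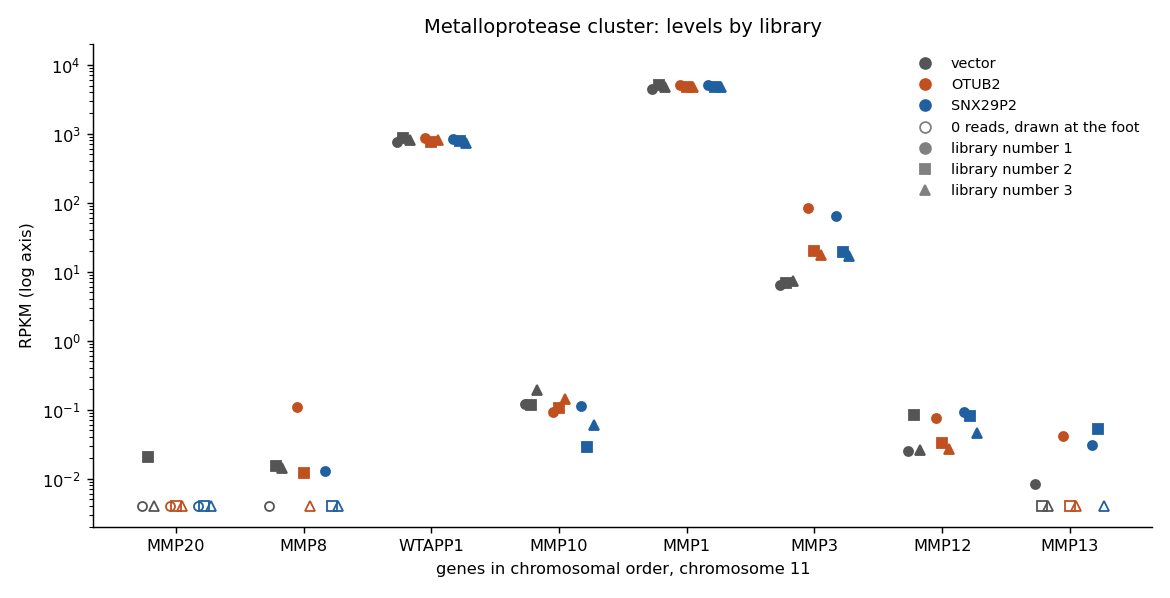
Levels of genes of the chromosome 11 metalloprotease cluster in their order on the chromosome, in RPKM on a log axis. Each library has 1 symbol, with open symbols at the foot for libraries with 0 reads. MMP1 and the opposite-strand WTAPP1 lie at 737 RPKM or more, MMP3 between 6.41 and 83.7 RPKM, and MMP20, MMP8, MMP10, MMP12 and MMP13 below 0.2 RPKM.

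Other metalloproteases of the cluster that were found in the data were near 0 as well: in no library did MMP8, MMP12, MMP13 or MMP20 exceed 0.110 RPKM. The promoter of MMP10 is printed because it is the only one of the 3 neighbours with an entry in the RefSeq promoter table (GRCh38.p14). This promoter also matches TGANTCA, where N is any base, the motif searched for AP-1, a known regulator of metalloprotease genes. The bases from 80 to 1 before its start site, chr11:102780629-102780708 on the minus strand, carry an AP-1 motif (TGANTCA, searched on both strands) 67 bases before the start and a TATA box (TATAAA) 31 bases before it, both in capitals.
MMP10: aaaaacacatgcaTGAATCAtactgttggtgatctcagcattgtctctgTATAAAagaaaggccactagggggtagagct
Within 250 bases before the start, the AP-1 motif was found in 6.57% of 35116 promoters, TATAAA in 10.7% and the ETS motif AGGAAG in 28.7%. Of the 10 genes, 6 had a promoter in the table. An AP-1 motif was also in that of PLAUR, 186 bases before the start. ETS motifs were in those of TIMP1 (87 bases before the start), PLAUR (15 bases) and the second listed start of PLAU (221 bases), and no searched motif was in those of MMP14 and TIMP3. A match in letters is no evidence of binding.

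MMP2, gelatinase A, degrades type IV collagen of basement membranes and denatured collagens. It is at chromosome 16, 55389700 to 55506691 (GRCh38), on the plus strand. MMP2 was at 26.7, 27.8 and 24.5 RPKM with the vector, 29.3, 25.7 and 27.7 RPKM with OTUB2, and 23.5, 20.1 and 20.9 RPKM with SNX29P2. All 3 SNX29P2 libraries lay below all vector libraries, as for 5.53% of the genes tested. They also lay below all OTUB2 libraries, as for 4.3%. Means were 26.3 ± 1.69, 27.6 ± 1.83 and 21.5 ± 1.76 RPKM (SD, n = 3). The limma difference of SNX29P2 from the vector was -0.29 (SE 0.0828, 95% interval -0.48 to -0.11), with an unadjusted limma p of 0.00579 but an adjusted p of 0.502. OTUB2 differed from the vector by 0.06 (limma adjusted p = 0.936), and by 0.019 without OTUB2 replicate 1. Between the overexpression groups the difference was 0.36 (95% interval 0.17 to 0.54), with an unadjusted limma p of 0.00170 and an adjusted p of 1.000. Without OTUB2 replicate 1 that difference was 0.31. By library number, MMP2 in the OTUB2 library was 1.25, 1.28 and 1.32 times that in the SNX29P2 library.

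MMP14, a membrane-anchored metalloprotease, activates pro-MMP2 at the cell surface together with TIMP2. It is at chromosome 14, 22836557 to 22849027 (GRCh38). Its libraries gave 60.2, 59.5 and 57.4 RPKM with the vector, 49.0, 60.7 and 55.4 RPKM with OTUB2, and 50.5, 59.4 and 54.5 RPKM with SNX29P2. Replicate 1 was the lowest library of both overexpression groups, and the groups overlapped. Limma differences were -0.11 for either overexpression (SE 0.0870, adjusted p = 0.874 and 0.784). They were -0.026 without OTUB2 replicate 1 and -0.053 without SNX29P2 replicate 1.

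None of the 3 inhibitors was called in any of the 3 comparisons. TIMP1, which inhibits most secreted metalloproteases, is at chromosome X, 47582313 to 47586789 (GRCh38), inside SYN1 on the opposite strand. It was at 103, 106 and 105 RPKM with the vector, 115, 106 and 106 RPKM with OTUB2, and 103, 95.2 and 95.9 RPKM with SNX29P2. Its OTUB2 libraries lay above all vector libraries by a narrow margin, as for 5.9% of the genes tested, and above all SNX29P2 libraries, as for 4.3%. The limma differences were 0.06 (SE 0.0563, adjusted p = 0.900) for OTUB2, -0.09 (adjusted p = 0.705) for SNX29P2, and 0.15 (95% interval 0.03 to 0.28, unadjusted p = 0.0223, adjusted p = 1.000) between the overexpression groups. Without OTUB2 replicate 1, its highest library, the first difference was 0.024 and the last 0.12. Library by library, the OTUB2 to SNX29P2 ratio of TIMP1 was 1.11, 1.12 and 1.11. MMP1 stood 42.6 to 50.4 times above TIMP1 in RPKM over the 9 libraries.

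TIMP2 takes part in pro-MMP2 activation as well as in inhibition, and is at chromosome 17, 78852977 to 78925387 (GRCh38), on the minus strand. It was at 20.8, 20.1 and 15.4 RPKM with the vector, 18.6, 18.7 and 15.5 RPKM with OTUB2, and 17.3, 18.2 and 15.0 RPKM with SNX29P2. Replicate 3 was the lowest in each group, a pattern that 9.27% of the genes tested had. TIMP3, which unlike the others is bound to the matrix, is at chromosome 22, 32801701 to 32863043 (GRCh38), inside SYN3 on the opposite strand. It gave 19.4, 30.7 and 17.0 RPKM with the vector, 19.2, 31.7 and 22.0 RPKM with OTUB2, and 15.3, 27.8 and 17.8 RPKM with SNX29P2. Here replicate 2 was the highest of each group, as it was for 14.2% of the genes tested. Within a group the highest TIMP3 library was 1.65 to 1.81 times the lowest, a wider spread than any difference between group means. For TIMP2, limma adjusted p was 0.951 for OTUB2 and 0.808 for SNX29P2, and for TIMP3 it was 0.971 and 0.931. The 95% intervals of the TIMP3 log2 differences, -0.49 to 0.76 and -0.77 to 0.48, leave room for sizeable differences in either direction. Without OTUB2 replicate 1 the OTUB2 difference was -0.13 for TIMP2 and 0.28 for TIMP3, and without SNX29P2 replicate 1 the SNX29P2 difference of TIMP3 was 0.037.

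PLAU encodes urokinase and is at chromosome 10, 73909177 to 73917497 (GRCh38), overlapping C10orf55 on the opposite strand. It was the second most abundant of the 10 genes, with 205, 210 and 189 RPKM in the vector libraries. OTUB2 libraries had 154, 198 and 170 RPKM and SNX29P2 libraries 143, 187 and 162 RPKM. The SNX29P2 libraries all lay below the vector libraries, as for 5.53% of the genes tested, and OTUB2 replicate 2 was within the vector range. Replicate 2 was the highest PLAU library of each group, the pattern seen in TIMP3. Means were 201 ± 10.9, 174 ± 22.2 and 164 ± 21.7 RPKM (SD, n = 3). The limma log2 difference was -0.22 (SE 0.112, adjusted p = 0.782) with OTUB2 and -0.30 (SE 0.112, unadjusted p = 0.0234, adjusted p = 0.551) with SNX29P2. Without OTUB2 replicate 1 the former was -0.13 (limma adjusted p = 0.991). Without SNX29P2 replicate 1 the latter was -0.21 (limma adjusted p = 0.571). In both overexpression groups the library with the highest MMP3, replicate 1, had the lowest PLAU, as it had the lowest MMP14 and TIMP3. Deviations of these libraries from their group means correlated over all genes tested (r = 0.27). The share of all genes with this pattern was not counted, and a link between MMP3 and PLAU was not tested.

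PLAUR, the receptor that holds urokinase at the cell surface, is at chromosome 19, 43646095 to 43670547 (GRCh38), on the minus strand. It was at 38.2, 33.8 and 38.9 RPKM with the vector, 33.8, 34.3 and 34.2 RPKM with OTUB2, and 35.8, 32.3 and 34.5 RPKM with SNX29P2, and the groups overlapped. Limma differences were -0.11 for either overexpression (SE 0.0690, adjusted p = 0.817 and 0.718). Without OTUB2 replicate 1 the former was again -0.11. PLAU was 4.01 to 6.19 times PLAUR in RPKM over the 9 libraries, lowest in SNX29P2 replicate 1 and highest in vector replicate 2.

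Of the 9 genes tested, 0 were called at a limma adjusted p under 0.05 in each of the 3 comparisons. Over all genes tested, 0.0181% were called for OTUB2 against vector, 0.0363% for SNX29P2 against vector and 0.0242% for OTUB2 against SNX29P2. At an unadjusted limma p under 0.05, 1 of the 9 passed with OTUB2 (MMP3, background 6.73%), 3 with SNX29P2 (MMP2, MMP3 and PLAU, background 8.21%) and 2 between the overexpression groups (MMP2 and TIMP1, background 2.43%). Libraries did not overlap for MMP3 and TIMP1 in OTUB2 against vector, both higher, where 5.9% of all genes were higher without overlap. In SNX29P2 against vector MMP3 was higher without overlap (background 6.13%) and MMP2 and PLAU were lower (background 5.53%). OTUB2 libraries of MMP2 and TIMP1 were above all SNX29P2 libraries (background 4.3%). The median log2 difference of the 9 genes was 0.03, -0.11 and 0.09 in these comparisons, against 0.01, 0.01 and -0.00 over all genes tested. Because the first and the second comparison share the vector libraries, the alike values of MMP3, MMP14 and PLAUR in them are not independent.

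**Figure D4:**
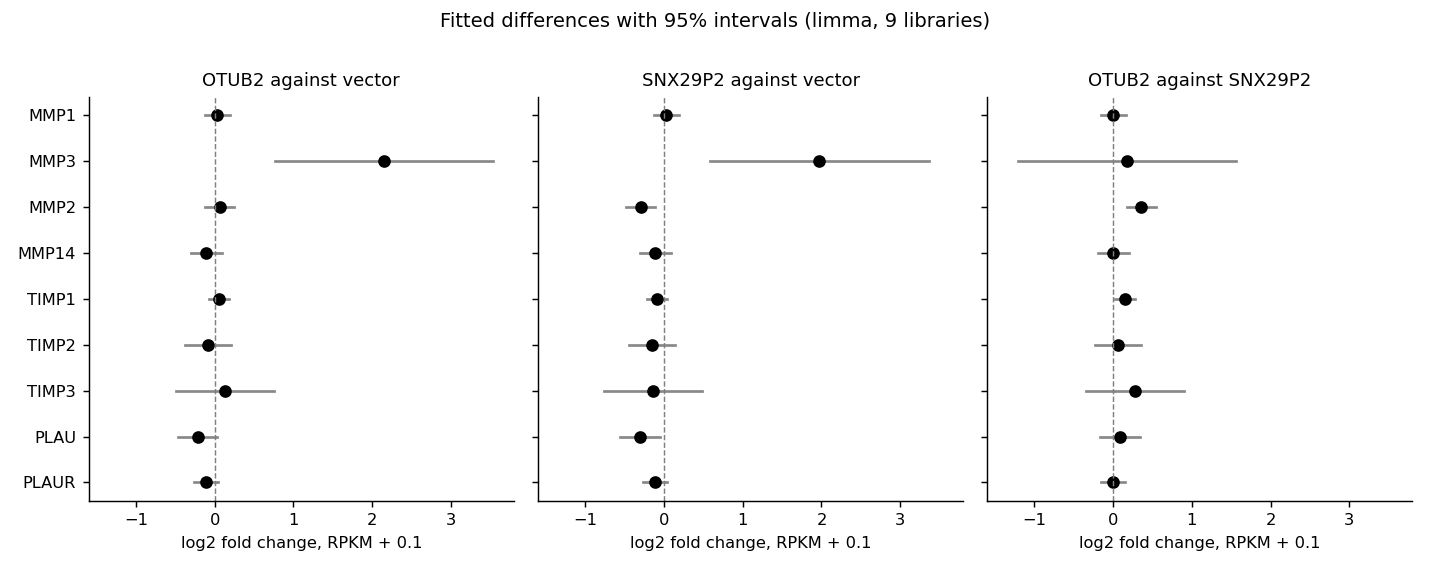
Fitted log2 differences (limma, RPKM + 0.1, 9 libraries) of the 9 genes tested in the 3 comparisons, as points with 95% intervals, where 0 means no difference. MMP3 is at 2.15 and 1.97 against the vector with the widest intervals, and the other 8 genes lie between -0.30 and 0.36 in all 3 comparisons.

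The rest of the pathway was read from lists of genes. Some listed genes were not found in the data or were too low to test. Among 18 other metalloproteases, 14 were found, 4 were tested and 0 called in either direction. The tested ones were at low levels: MMP16, a membrane-type enzyme, was at 1.67 to 2.56 RPKM, and MMP17, anchored by glycosylphosphatidylinositol, at 0.762 to 1.71 RPKM. Their limma log2 differences were 0.07 and -0.46 with OTUB2 and 0.22 and -0.43 with SNX29P2 (adjusted p of 0.724 or more).

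Of 16 other genes of the plasminogen system, 10 were tested and 0 called. LRP1, an endocytic receptor that clears protease complexes from the cell surface, was at 3.23, 2.78 and 1.73 RPKM with the vector, 1.67, 1.53 and 1.20 RPKM with OTUB2, and 1.68, 1.70 and 1.26 RPKM with SNX29P2. All 6 overexpression libraries were below all vector libraries, as for 2.44% of the genes tested, with limma differences of -0.74 (adjusted p = 0.661) and -0.67 (adjusted p = 0.541). ANXA2, annexin A2, a surface receptor for plasminogen and tissue plasminogen activator, was at 204, 171 and 198 RPKM with the vector, 228, 220 and 227 RPKM with OTUB2, and 228, 212 and 211 RPKM with SNX29P2. Its limma differences were 0.24 (adjusted p = 0.630) and 0.19 (adjusted p = 0.558).

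Among 13 further inhibitors and activators, 7 were tested and 0 called. BSG (basigin, an inducer of metalloproteases) was at 149 to 157 RPKM with the vector, 144 to 145 RPKM with OTUB2 and 133 to 141 RPKM with SNX29P2. It was lower in all 6 overexpression libraries than in any vector library, as for 2.44% of the genes tested. Its limma differences were -0.08 (adjusted p = 0.839) and -0.16 (adjusted p = 0.502). TFPI2, a secreted inhibitor of plasmin, was at 53.9 to 65.7 RPKM over all libraries. In the ADAM and ADAMTS list 14 of 30 genes were tested and 0 called. ADAMTS1, a protease of proteoglycans, had a difference of -0.29 with OTUB2 and -0.09 with SNX29P2, and ADAM23 of -0.25 and -0.20. Of 20 cathepsins and other matrix proteases, 9 were tested and 0 called. CTSB is a lysosomal protease that can activate pro-urokinase. It was lower in all 6 overexpression libraries (54.1 to 59.2 RPKM) than in the vector libraries (60.8 to 72.2 RPKM), again as for 2.44% of the genes tested. Its log2 differences were -0.22 (limma adjusted p = 0.675) and -0.24 (adjusted p = 0.502). CTSK, a collagenolytic cathepsin, differed by 0.18 and 0.10.

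Transcription factors of the AP-1 and ETS families act on several of these genes, and 19 of the 22 in the list were tested, with 0 called. The immediate early factor EGR1, placed in this list, was at 15.3, 30.8 and 20.7 RPKM with the vector, 10.7, 17.0 and 9.45 RPKM with OTUB2, and 12.1, 16.1 and 9.49 RPKM with SNX29P2 (limma differences -0.83 and -0.79, adjusted p = 0.691 and 0.551). MAFF differed by -0.24 and -0.13. In the list of cytokines, growth factors and their receptors, 15 of 23 were tested and 0 called. LIF, a cytokine of the interleukin 6 family, differed by -0.33 and -0.31, and IL1B, an inducer of MMP1 and MMP3 in many cells, by -0.27 and -0.63. In the 7 lists, median log2 differences lay between -0.11 and 0.11 with OTUB2 and between -0.10 and 0.06 with SNX29P2, against 0.01 over all genes tested in each comparison.

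**Figure D5:**
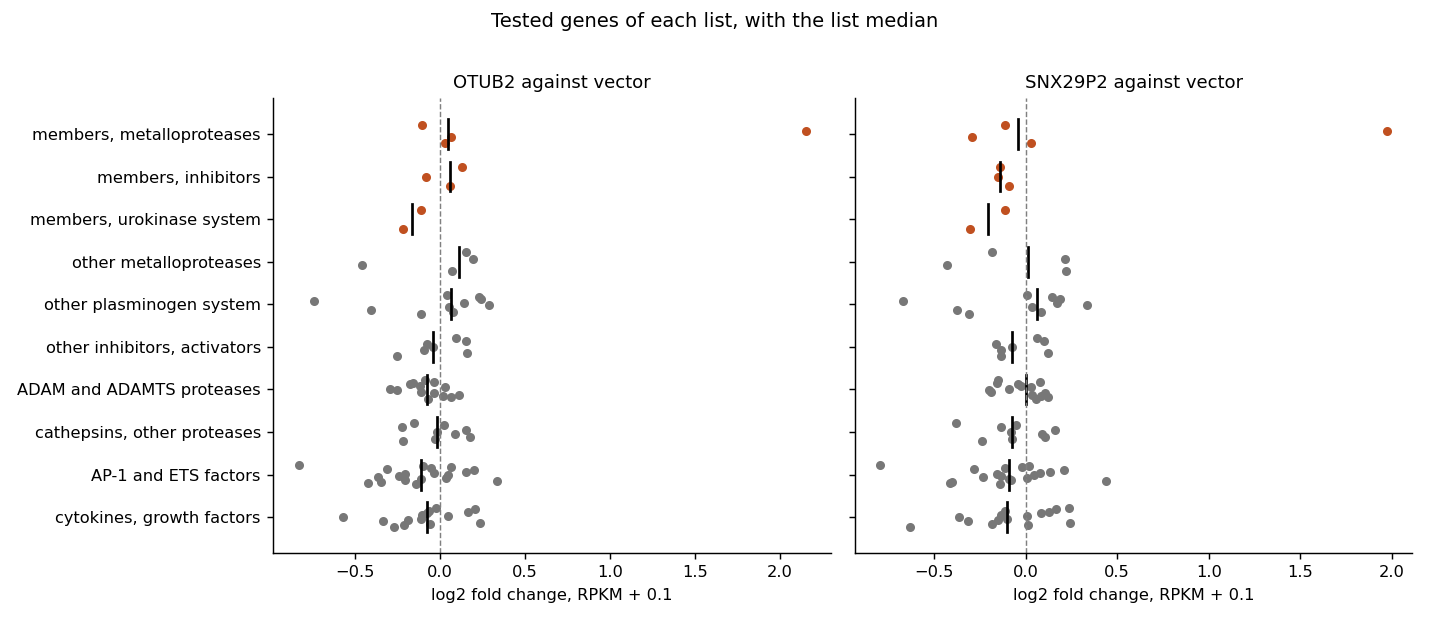
Log2 differences from the vector of every tested gene in each list, OTUB2 on the left and SNX29P2 on the right, with 1 point per gene and a black line at the list median; the genes described above are in orange, without MMP10, which was not tested. MMP3 lies near 2 in both panels and every other point lies between -0.9 and 0.5.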

How the data were processed

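RNA-seq of 9 ES-2 libraries was analysed, 3 per group, grouped by the genotype in the labels. The authors deposited 1 table of RPKM values, which per the file headers also lists exons and lengths of its 32997 genes. The submitters' processing notes name the build GRCh38. For alignment, counting and the use of strand, the method is not given in the sources used here. After multiplication by length, 100% of values below 1000 reads were whole multiples of 1 read within 0.05 reads, so whole reads were recovered.

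Tests covered the 16533 genes that reached 0.5 RPKM in 3 or more libraries, of them 9 of the 10 genes described, as log2(RPKM + 0.1), which understates changes of low genes. All 9 libraries entered a single fit in limma (version 3.58.1, R 4.3.3), with group as the factor and a variance trend, with Benjamini-Hochberg adjustment over all genes tested and a threshold of 0.05. The program was tested on simulated data. Tables and plots used python 3.11.15, pandas 2.3.3, numpy 2.4.6, scipy 1.17.1 and matplotlib 3.10.9.

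The 10 genes and all lists were chosen with earlier results of these data known. From each list of the rest of the pathway, up to 3 called genes or else the 2 with the smallest p against the vector are named, and the 10 genes most correlated with MMP3. Of the cell type markers, only some are named, for their levels. Deviations from group means correlated between same-numbered OTUB2 and SNX29P2 libraries (0.27, 0.26 and 0.15), so ratios by library number are also given. The main fit had no term for the number, which entered only the fit with a replicate block. Tried in turn were limma voom on the recovered reads, other pseudocounts (0.01 and 1), other filters (none, or 1 RPKM in 6 libraries), median-of-ratios scaling, a replicate block, a robust variance, fits of the compared groups alone, and fits that left out a library. Fits without the libraries numbered 1 or 2, and both overexpression groups together, were added after seeing the data.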

Additional observations from a re-analysis of the deposited data

How the results depend on the processing

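In 559 values of the 9 tested genes and of MMP3 in both overexpression groups together, refitted under the alternatives, 0 had a limma adjusted p under 0.05. The lowest was 0.0501, for MMP3 in both groups together without the libraries numbered 1. A replicate block by library number brought no call among these genes: MMP3 had a limma adjusted p of 0.206 with OTUB2 and 0.193 with SNX29P2, PLAU 0.358 and 0.212, and MMP2 0.207 with SNX29P2. Between the overexpression groups, the lowest limma adjusted p of MMP2 and of TIMP1 over all alternatives, the block among them, was 0.871. With the block 4, 9 and 4 genes of the whole table were called, against 3, 6 and 4 without it, in the comparison of OTUB2 with vector, that of SNX29P2 with vector and that of the overexpression groups. Deviations of same-numbered vector libraries correlated at 0.051, 0.19 and 0.14 with OTUB2 and at -0.018, 0.15 and 0.10 with SNX29P2. For vector replicates 2 and 3 these values were above those with libraries of another number (-0.15 to 0.024). Vector replicate 1 correlated with SNX29P2 replicate 3 at 0.050, so libraries numbered 1 showed no such link to the vector. Against the vector the pairing by number was therefore weak and uneven. The cause of changes in these counts was not tested. No filter gave 7, 8 and 6 genes, the filter of 1 RPKM in 6 libraries 2, 1 and 1, voom 3, 10 and 4, only the compared groups 1, 4 and 4, and leaving out the libraries numbered 1 or those numbered 2 gave 1, 0 and 1 each. Leaving out each library gave 1 to 7, 1 to 7 and 1 to 5. MMP10, fitted without the filter, differed by -0.18 and -0.56 from the vector (limma adjusted p = 0.918 and 0.777).

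29 values, none past the threshold, changed sign. Leaving out each library, the log2 difference ranged from -0.025 to 0.092 for MMP1, -0.22 to 0.0067 for TIMP2 and -0.075 to 0.38 for TIMP3 with OTUB2, and from -0.029 to 0.089 for MMP1 and -0.39 to 0.11 for TIMP3 with SNX29P2. Between the overexpression groups it ranged from -0.033 to 0.026 for MMP1, -0.54 to 0.79 for MMP3, -0.069 to 0.085 for MMP14, -0.013 to 0.16 for TIMP2, -0.011 to 0.18 for PLAU and -0.044 to 0.030 for PLAUR. Without the libraries numbered 1, MMP1 was at -0.062 with OTUB2, -0.052 with SNX29P2 and -0.011 between them, and PLAUR at 0.036 between them. Without those numbered 2, MMP14 was at -0.010 between them, and with median-of-ratios scaling PLAUR was at 0.0011. With 3 libraries per group and a wide spread, MMP3 was not called in any of these fits after adjustment over all genes tested. That is no evidence that it did not differ.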

Other observations

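Some further genes of the lists were highest, at low levels, in OTUB2 replicate 1, the library that also held leukocyte markers. Others were not. MMP9, gelatinase B, was at 0.182 RPKM there, at 0.0560 and 0.0107 RPKM in SNX29P2 replicates 1 and 2, and at 0 in the other 6 libraries. MMP8, the neutrophil collagenase, was at 0.110 RPKM in that library and at most 0.0151 RPKM in the others. MMP25, another membrane-anchored enzyme of neutrophils, was at 0.988 RPKM against 0.365 to 0.566 RPKM. LCN2, which binds MMP9, was at 0.398 RPKM and at 0 in the other 8 libraries. ADAM8 was at 0.424 RPKM in that library and at most 0.0543 RPKM in the others, and the cathepsin CTSS at 0.636 RPKM against 0.0619 to 0.270 RPKM. SPOCK2 was at 0.0933 RPKM in that library and at most 0.00762 RPKM in the others. ADAMTS10, KLK10 and PCSK5, on 4 to 6 reads each, were found in OTUB2 replicate 1 alone. MMP12, the macrophage metalloelastase, was at 0.0755 RPKM there, below vector replicate 2 (0.0832 RPKM) and SNX29P2 replicates 1 and 2 (0.0931 and 0.0802 RPKM). These genes were picked after their values were seen. The values compare 1 library with 8 and have no test.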
